A study of Mus musculus with 10 samples.

Results

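The genes described here are 9 genes of telomere maintenance, chosen by name: *Tert* and *Dkc1* of telomerase, *Terf1*, *Terf2*, *Pot1a*, *Pot1b*, *Tinf2* and *Acd* of the shelterin complex, and *Rif1*. All 9 were listed among the 18901 genes of the series and all 9 were among the 17075 genes tested, the filter being 10 or more pseudo-counts in 2 or more libraries. The series holds 10 libraries of poly(A) RNA from 5 mouse lines of a cross of mf1 and 129, with 2 libraries per line. Oct4-GFP MEF, mouse embryonic fibroblasts with a fluorescent reporter of *Oct4*, were sequenced at passages 2 and 4 in DMEM with 10% FCS. The pre-iPS line, the 'control' iPS line and the 'Netrin-1 derived' iPS clone 1 and clone 2 were sequenced at passages 5 and 25 in medium with KSR and LIF. All iPS and pre-iPS lines came from MEF that received Oct4, Sox2, Klf4 and c-Myc by retrovirus, and the Netrin-1-derived clones were obtained with recombinant Netrin-1, a secreted guidance cue. The pre-iPS line had stopped part of the way: its cells, by the study's methods, neither switched on the Oct4 reporter nor silenced the transgenes. Each pre-iPS and iPS line is 1 clone and its passages are repeated samples of it, so that the tests below measure the spread between passages and not between independently derived clones.

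Telomeres are the repeat-bearing ends of chromosomes, which shorten at each round of replication unless telomerase, an enzyme that carries its own RNA template (*Terc*), extends them. Shelterin is the protein complex that sits on the repeats and keeps the ends from being read as broken DNA. Telomerase is known to be active in pluripotent cells, and reprogramming of fibroblasts to iPS cells is known to be accompanied by telomere lengthening. Transcript levels do not measure telomere length or telomerase activity.

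The values are edgeR pseudo-counts, that is read counts brought to a common library size by the authors, and the libraries held 38110410 to 52946856 reads on genes. The 9 genes had between 363 and 15291 reads in a library, for which counting error alone is 0.809% to 5.25% of the value. Summed marker genes separated MEF from the other lines, and the pluripotency sum also separated pre-iPS from the iPS lines. The summed level of 6 pluripotency markers was 141 to 151 in MEF, 14285 to 14409 in pre-iPS and 24884 to 52887 in the iPS lines. That of 6 fibroblast markers was 2914190 to 3059190 in MEF, 17786 to 19579 in pre-iPS and 17181 to 33268 in the iPS lines. Single pluripotency markers were mixed in pre-iPS: 5 of the 6 were lower than in iPS, such as *Esrrb* (log2 fold change −6.78) and *Dppa3* (−7.11). *Zfp42* did not differ (0.017, adjusted p = 0.961 in limma). Macrophage markers summed to 11660 to 11749 in MEF against 434 to 1652 in the other lines, with 2 of the 6 at 0 in both pre-iPS libraries, and the part of such cells in the MEF values was not tested. In bulk samples, fewer cells of a type and less RNA per cell cannot be told apart.

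*Tert* encodes the reverse transcriptase of telomerase and lies at chr13:73626911-73649843 on the plus strand of GRCm38. *Dkc1* encodes dyskerin, which binds and stabilises the telomerase RNA and also modifies ribosomal RNA, and lies at chrX:75095854-75109777 on the plus strand. The 250 bases before their annotated starts are shown because these are the telomerase genes of the list and both were measured at different levels in MEF and in the reprogrammed lines. They were taken from RefSeq for GRCm38.p6 and are written 5′ to 3′ on the strand of the gene. Capitals mark the GC box, GGGCGG or its reverse complement CCGCCC, a binding motif of Sp1.

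Tert, chr13:73626661-73626910, plus strand: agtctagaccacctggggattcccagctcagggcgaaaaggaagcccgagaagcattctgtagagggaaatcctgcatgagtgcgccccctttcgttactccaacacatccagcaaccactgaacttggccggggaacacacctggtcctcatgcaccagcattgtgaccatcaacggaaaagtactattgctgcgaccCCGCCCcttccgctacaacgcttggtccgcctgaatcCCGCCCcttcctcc
Dkc1, chrX:75095604-75095853, plus strand: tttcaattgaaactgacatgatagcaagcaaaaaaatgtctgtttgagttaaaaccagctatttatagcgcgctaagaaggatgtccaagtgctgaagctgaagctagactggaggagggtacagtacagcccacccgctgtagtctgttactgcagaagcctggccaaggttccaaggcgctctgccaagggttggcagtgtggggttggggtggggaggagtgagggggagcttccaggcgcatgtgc

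The *Tert* window held 2 GC boxes, which began 51 and 14 bases before the start, and the *Dkc1* window held none. Promoter windows were found in RefSeq for 7 of the 9 genes, and 3 of these 7 (*Tert*, *Pot1a* and *Pot1b*) held a GC box, as did 32.7% of 32851 windows of the same length. The E-box CACGTG, to which c-Myc binds, was searched on both strands and was in 0 of the 7 windows and in 6.02% of all windows. The CCAAT box was in 3 of the 7 (*Terf2*, *Pot1b* and *Acd*) and in 33.8% of all windows. A match is a string of letters in this window only, and its absence says nothing about the factor.

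To examine how telomere maintenance genes differ between the starting fibroblasts and the reprogrammed lines, the MEF libraries were first set against the 6 libraries of the iPS lines. The genes lower in MEF were 7, namely *Tert*, *Dkc1*, *Terf1*, *Pot1a*, *Pot1b*, *Tinf2* and *Rif1*. *Terf2* and *Acd* did not pass the test. The transcriptional distance between MEF and iPS cells was wide in the table as a whole: 79.3% of the genes tested passed at an adjusted p under 0.05 in limma, 37.4% higher and 41.9% lower in MEF. The 2-fold threshold was passed by 5 of the 9, all lower, against 26.6% of all genes in that direction.

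**Figure D1:**
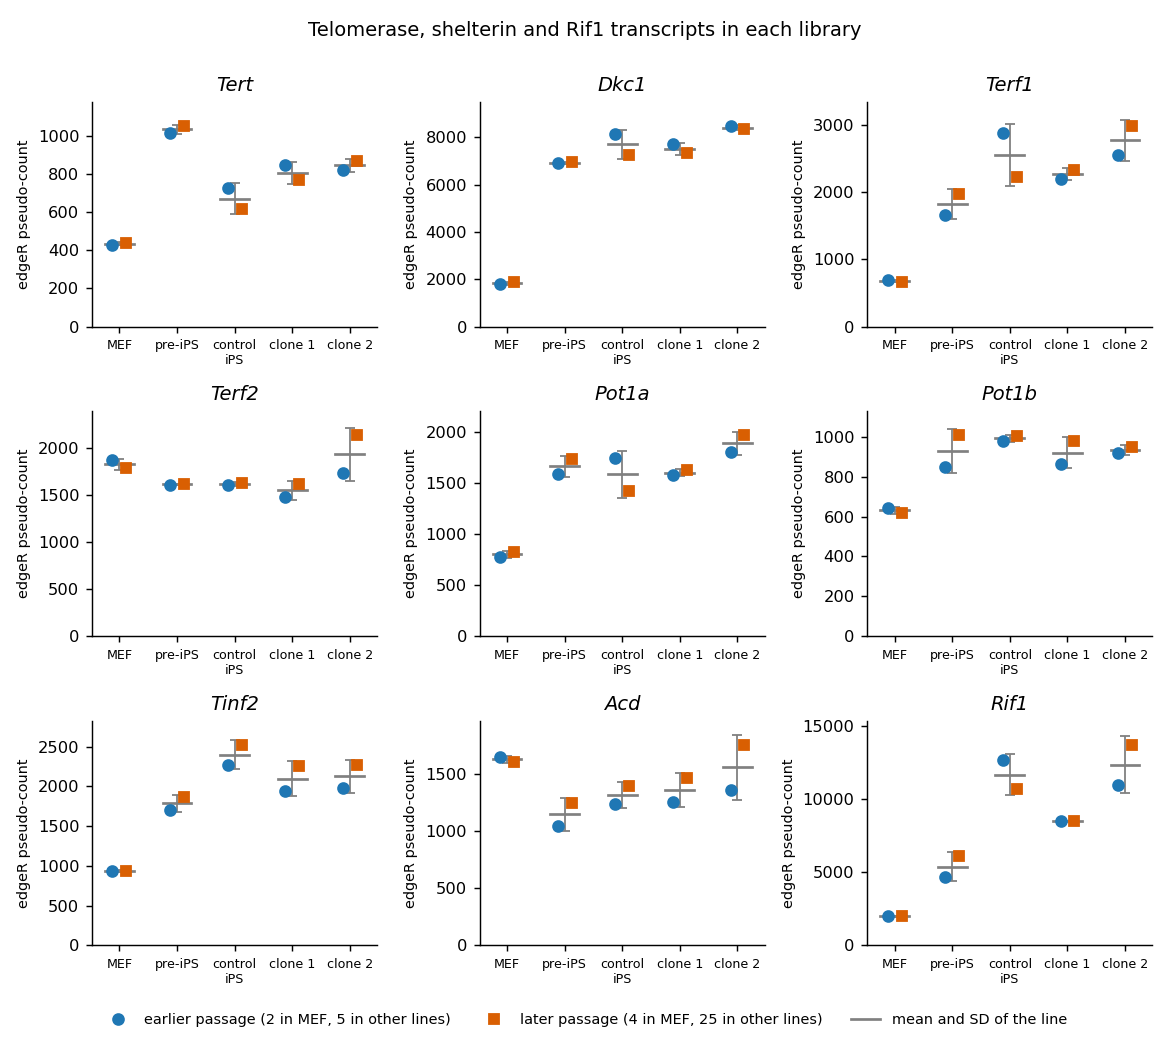
Pseudo-counts of the 9 genes in each of the 10 libraries, with the lines along the horizontal axis and the vertical axis starting at 0. Circles are the earlier and squares the later passage, and bars give the mean and SD of the 2 libraries of a line. MEF sit below the other lines for 7 genes, from *Rif1* (1971 and 1985) to *Pot1b* (618 and 643), and within or above them for *Terf2* and *Acd*.

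*Tert* read 430 at passage 2 and 441 at passage 4 in MEF. It read 1019 and 1054 in pre-iPS at passages 5 and 25. In the iPS lines at the same passages it read 729 and 616 in the control iPS line, 850 and 768 (clone 1) and 823 and 870 (clone 2). Every MEF library was thus below every other library, and both pre-iPS libraries were above every iPS library. The *Tert* transcript was present in MEF at 56.1% of the mean of the iPS lines, which is −0.82 ± 0.097 (SE) on the log2 scale with an adjusted p of 5.24e-05 in limma. The exact two-sided permutation test of 2 libraries against 6 gave p = 0.0357, the smallest it can give.

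*Dkc1*, the other telomerase gene of the list, was also lower in MEF than in the other lines. It read 1795 and 1878 in MEF, 6907 and 6951 in pre-iPS, 8155 and 7273 in the control iPS line, 7710 and 7336 (clone 1) and 8490 and 8353 (clone 2). The MEF level was 23.3% of the iPS mean, which is −2.10 ± 0.062 (SE) on the log2 scale with an adjusted p of 2.08e-08 in limma. Per kilobase of exon, which is the scale on which genes can be compared, *Dkc1* stood at 2812 and *Tert* at 179.9 on average in the iPS lines. The level of *Tert* per kilobase was 0.154 of that of *Dkc1* in MEF, 0.0973 in pre-iPS and 0.0566 to 0.0698 in the iPS lines, so that in MEF *Tert* was the less reduced of the pair.

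*Terf1* encodes TRF1, which binds the double-stranded repeats and acts in their replication, and *Terf2* encodes its relative TRF2, which protects the ends from being joined. On GRCm38 they lie at chr1:15805646-15844052 (plus strand) and chr8:107069400-107096547 (minus strand). *Terf1* read 690 and 668 in MEF, 1663 and 1981 in pre-iPS, 2888 and 2234 in the control iPS line, 2204 and 2337 (clone 1) and 2557 and 2989 (clone 2). *Terf2* read 1865 and 1783 in MEF, 1606 and 1616 in pre-iPS, 1600 and 1626 in the control iPS line, 1477 and 1615 (clone 1) and 1734 and 2132 (clone 2). The pair behaved differently: *Terf1* in MEF lay below all other libraries without overlap, at 26.8% of the iPS mean (log2 fold change −1.89 ± 0.12 SE, adjusted p = 8.95e-07 in limma), while *Terf2* in MEF overlapped the iPS range (0.11 ± 0.088 SE, adjusted p = 0.261). Per kilobase of exon, *Terf1* was at 0.63 of *Terf2* in MEF, at 1.91 of it in pre-iPS and at 2.44 to 2.69 of it in the iPS lines. This order of the pair within a library does not depend on the scaling of the library.

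*Pot1a* and *Pot1b* are the mouse copies of POT1, which binds the single-stranded overhang at the end. They lie at chr6:25743737-25809246 and chr17:55651951-55712628, both on the minus strand. *Pot1a* read 778 and 821 in MEF, 1595 and 1740 in pre-iPS, 1746 and 1425 in the control iPS line, 1579 and 1625 (clone 1) and 1810 and 1970 (clone 2). *Pot1b* read 643 and 618 in MEF, 850 and 1008 in pre-iPS, 981 and 1006 in the control iPS line, 866 and 977 (clone 1) and 918 and 952 (clone 2). Both were lower in MEF than in every other library, *Pot1a* at 47.2% of the iPS mean (log2 fold change −1.07, adjusted p = 7.23e-06 in limma) and *Pot1b* at 66.4% (−0.59, adjusted p = 0.000401). The copies did not share any stretch of 50 bases, the length of the reads, in the annotated transcripts. The ratio of *Pot1a* to *Pot1b* per kilobase was 1.11 in MEF and 1.40 to 1.77 on average in the other lines.

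*Tinf2* encodes TIN2, which links TRF1 and TRF2 to the rest of the complex, and *Acd* encodes TPP1, which binds POT1 and recruits telomerase. They lie at chr14:55674689-55681820 and chr8:105695860-105701102, both on the minus strand. *Tinf2* read 930 and 940 in MEF, 1709 and 1863 in pre-iPS, 2270 and 2526 in the control iPS line, 1945 and 2254 (clone 1) and 1982 and 2271 (clone 2). It was lower in MEF than in every other library, at 42.4% of the iPS mean (log2 fold change −1.23 ± 0.091 SE, adjusted p = 2.61e-06 in limma). *Acd* read 1654 and 1611 in MEF, 1047 and 1250 in pre-iPS, 1237 and 1399 in the control iPS line, 1254 and 1468 (clone 1) and 1361 and 1759 (clone 2). The MEF libraries were higher than 7 of the other 8 libraries, clone 2 at passage 25 being the exception, and the difference from the iPS lines was 0.22 ± 0.12 (SE, log2; adjusted p = 0.132 in limma).

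Both of these genes overlap a gene on the opposite strand, and the library kit did not mark strand. Of the exon bases of *Tinf2*, 37.8% overlap *Gmpr2*, which read 1486 to 2155 over the 10 libraries and was 0.14 lower in MEF than in iPS on the log2 scale (log2 fold change −0.14, adjusted p = 0.131 in limma). Of those of *Acd*, 19.1% overlap *Carmil2*, listed as *Rltpr*, which read 43.2 to 477 and was lower in MEF than in iPS (log2 fold change −1.74, adjusted p = 0.000119 in limma). Reads from the shared stretches cannot be assigned to a strand, and how they were counted is not given in the sources used here.

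*Rif1*, which in mammals limits the cutting back of broken DNA ends and times replication, showed the widest range of the 9 genes. It lies at chr2:52072832-52122383 on the plus strand. It read 1971 and 1985 in MEF, 4670 and 6091 in pre-iPS, 12627 and 10648 in the control iPS line, 8503 and 8476 (clone 1) and 10980 and 13702 (clone 2). MEF were at 18.3% of the iPS mean, which is −2.43 ± 0.12 (SE) on the log2 scale with an adjusted p of 2.66e-07 in limma. The MEF, pre-iPS and iPS libraries formed 3 ranges that did not overlap.

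MEF and iPS libraries did not overlap in 7 of the 9 genes, the 7 called lower, which is near the 80.0% of all genes tested. The size of the shift depends on what is held constant between the lines. Scaling to *Gapdh*, *Actb*, *Hprt* and *Tbp* raised the median log2 difference of all genes by 0.396, from −0.087 to 0.309. It raised the share of calls in the higher direction from 47.1% to 61.2%. Before this scaling, *Gapdh* (−0.96), *Hprt* (−0.74) and *Tbp* (−0.30) were themselves lower in MEF than in iPS in limma, and *Actb* (0.45) was higher. Under that scaling 6 of the 9 genes were lower in MEF and *Pot1b* did not pass (−0.20, adjusted p = 0.0839 in limma), while *Terf2* (0.50) and *Acd* (0.61) passed as higher. TMM scaling, which shifted the median by 0.133, left 7 lower and called *Terf2* (0.25) and *Acd* (0.35) higher. *Dkc1*, *Terf1*, *Pot1a*, *Tinf2*, *Rif1* and *Tert* were lower in MEF under each of these scalings.

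The pre-iPS line was then set against the 3 iPS lines. *Tert* was higher in pre-iPS, and *Dkc1*, *Terf1*, *Tinf2* and *Rif1* were lower, that is 5 of 9 genes against 39.6% of all genes tested (18.7% higher and 20.8% lower). None of the 9 reached 2-fold together with the adjusted p, against 16.3% of all genes, *Rif1* falling just short of it. Pre-iPS and iPS libraries did not overlap in 5 of the 9 genes, the same 5 that were called, against 41.8% of all genes.

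**Figure D2:**
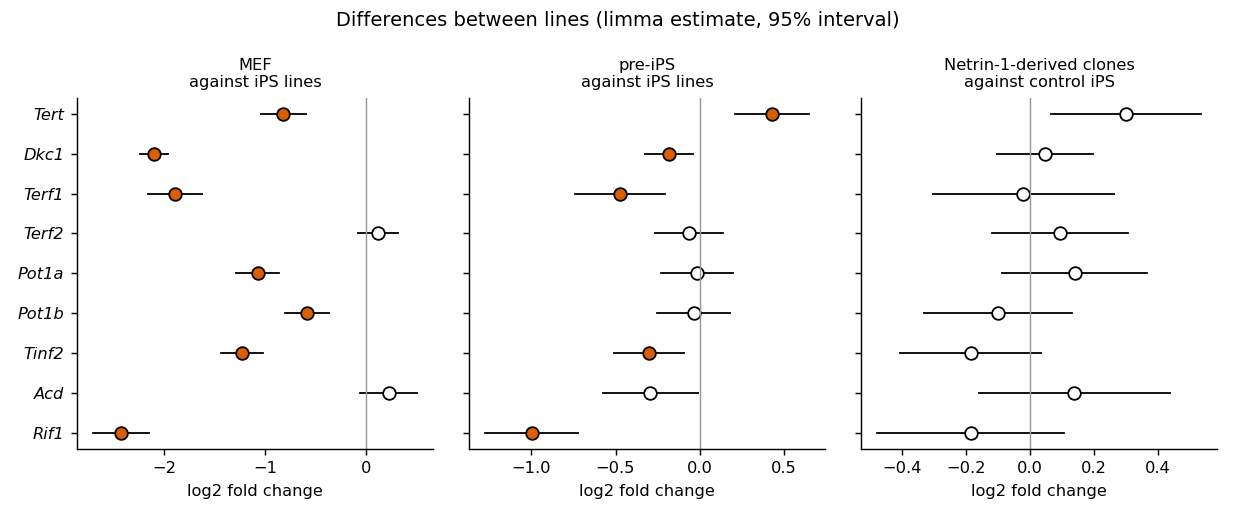
Log2 fold changes of the 9 genes, with the limma estimate as a circle and its 95% interval as a line, for MEF and pre-iPS against the 3 iPS lines and for the Netrin-1-derived clones against the control. Filled circles passed an adjusted p of 0.05. The horizontal scales differ between panels: *Rif1* reaches −2.43 in MEF and −0.997 in pre-iPS, *Tert* stands at −0.82 and 0.43, and no gene passed in the clones.

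*Tert* in pre-iPS was at 134% of the iPS mean (log2 fold change 0.43 ± 0.097 SE, adjusted p = 0.0087 in limma). It was the only gene of the 9 to pass the test as higher in pre-iPS than in iPS. The pre-iPS line held the highest *Tert* level of the 5 lines, though the step down to clone 2, the next line, did not pass (0.29 ± 0.12 SE, adjusted p = 0.0895 in limma). Without the pre-iPS library of passage 25 the adjusted p against the iPS lines was 0.0619.

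*Rif1* in pre-iPS was at 49.7% of the iPS mean (−0.997 ± 0.12 SE, adjusted p = 0.000394 in limma), and it passed at an adjusted p under 0.05 whichever library was left out. *Terf1* was at 71.9% (−0.47 ± 0.12 SE, adjusted p = 0.013 in limma), but not past the threshold without the pre-iPS library of passage 5 (adjusted p = 0.132). *Tinf2* (−0.30, adjusted p = 0.0291) and *Dkc1* (−0.18, adjusted p = 0.0439) passed more narrowly in limma. Fitting only the lines compared left them at adjusted p = 0.0547 and 0.0775 in limma. Of 22 alternatives, *Dkc1* lost the call in 12, among them TMM scaling (adjusted p = 0.0716 in limma), and *Tinf2* in 8. Losses in both genes included fits with 1 library left out. The estimates there ran from −0.21 to −0.16 for *Dkc1* and from −0.36 to −0.24 for *Tinf2*.

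*Terf2*, *Pot1a* and *Pot1b* differed from the iPS lines by −0.07, −0.02 and −0.04 on the log2 scale. The 95% intervals ran from −0.27 to 0.14, from −0.23 to 0.20 and from −0.25 to 0.18. *Acd* differed by −0.29 (adjusted p = 0.0902 in limma), and with the passage as a replicate block it passed as lower (adjusted p = 0.0127). The *Carmil2* neighbour was 2.43 lower in pre-iPS on the log2 scale (log2 fold change −2.43, adjusted p = 0.000116 in limma), and its part in the *Acd* value was not tested. *Gmpr2*, which overlaps *Tinf2*, was higher in pre-iPS (log2 fold change 0.33, adjusted p = 0.00988 in limma), while *Tinf2* was lower.

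The MEF and pre-iPS libraries of these comparisons were also set against each other. Here 7 genes were lower in MEF and *Acd* was higher, 8 of 9 against 70.6% of all genes (36.4% lower and 34.2% higher). *Dkc1* differed most (−1.92 ± 0.076 SE, adjusted p = 1.41e-07 in limma), and *Rif1* (−1.43), *Terf1* (−1.42), *Tert* (−1.25) and *Pot1a* (−1.06) also passed 2-fold, 5 of 9 against 22.4% of all genes in that direction. *Acd* was 1.43-fold higher in MEF than in pre-iPS (log2 fold change 0.51 ± 0.15 SE, adjusted p = 0.014 in limma), though not past the threshold without either MEF library (adjusted p = 0.0677 and 0.053), without the pre-iPS library of passage 5 (0.0924) or with quantile normalization (0.0623). *Terf2* did not pass (0.18, adjusted p = 0.169 in limma). Under scaling to the housekeeping genes *Pot1b* did not pass (−0.14, adjusted p = 0.321) and *Terf2* passed as higher (0.60, adjusted p = 0.00101 in limma). Of the housekeeping genes, *Gapdh* (−0.83) and *Hprt* (−0.98) were lower in MEF than in pre-iPS in limma. *Actb* (0.25) was higher and *Tbp* (−0.11) did not pass. *Terf2* also passed with TMM (0.29, adjusted p = 0.0404) and when only the lines compared were fitted (0.18, adjusted p = 0.046 in limma). Libraries of all 9 genes were apart here, as were those of 87.5% of all genes, and with 2 against 2 the exact permutation test cannot give a p below 0.333.

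In the order of the lines, MEF were the lowest for 7 genes and the step above them passed the test for each of those 7 in limma. Over all genes, the share that passed between MEF and the neighbour was 70.6% for pre-iPS, 75.3% for the control and 73.8% for clone 1. Among the 4 reprogrammed lines, 1 step between neighbours passed over all 9 genes. That step was *Rif1* between clone 1 and pre-iPS (0.67 ± 0.15 SE, adjusted p = 0.0134 in limma), a pair of lines in which 21.9% of all genes passed. For *Terf2*, ordered clone 2, MEF, control, pre-iPS and clone 1, no neighbours differed beyond the spread between libraries. The same held for *Acd*, ordered MEF, clone 2, clone 1, control and pre-iPS.

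The question put to the Netrin-1-derived clones was whether iPS cells obtained with recombinant Netrin-1 differ from the control in these genes. None of the 9 passed in limma, against 4.08% of all genes, and 1 gene (*Tert*) had an unadjusted p under 0.05. edgeR and DESeq2 on the recovered reads called 0 of the 9 each. *Tert* was higher in all 4 libraries of the clones (768 to 870) than in both control libraries (616 and 729), with a log2 fold change of 0.30 (95% interval 0.068 to 0.54; adjusted p = 0.165 in limma). The exact two-sided permutation test of 4 against 2 gave p = 0.0667, the smallest it can give. *Pot1b* also did not overlap, in the other direction (866 to 977 in the clones against 981 and 1006), and 21.3% of all genes did not overlap in this comparison.

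For the remaining genes the estimates of clones less control lay between −0.18 (*Rif1* and *Tinf2*) and 0.14 (*Pot1a* and *Acd*). Their 95% intervals reached at most −0.48 on the lower and 0.44 on the higher side. Differences of that size are not excluded, and the control is 1 clone.

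The clones obtained with Netrin-1 were also compared with each other. *Rif1* read 10980 and 13702 in clone 2 and 8503 and 8476 in clone 1, a difference of 0.53 ± 0.15 (SE, log2; adjusted p = 0.129 in limma). It passed in DESeq2 on the recovered reads (adjusted p = 0.0305) and not in edgeR. Of the 12 proliferation genes *Mcm5* (0.58, adjusted p = 0.0221) and *Mcm2* (0.38, adjusted p = 0.0343) were also higher in clone 2 in limma, and so were 3 of the 6 pluripotent markers, *Nanog* (1.37), *Esrrb* (2.35) and *Zfp42* (2.27). Their part in the *Rif1* value was not tested. For *Terf2* the estimate was 0.32 ± 0.11 (SE; adjusted p = 0.202 in limma). In limma 0 of 9 genes passed, against 1.59% of all genes, and 2 (*Terf2* and *Rif1*) had an unadjusted p under 0.05. Libraries of 5 genes did not overlap, all 5 higher in clone 2, against 42.8% of all genes.

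*Dkc1* is the X-linked gene of the list, and the lines differed in *Xist*, the RNA that coats the inactive X chromosome. *Xist* read 52735 and 52989 in MEF, 16030 and 22076 in pre-iPS, 317 and 282 in the control iPS line, 154 and 144 (clone 1) and 21946 and 20013 (clone 2). *Dkc1* was 0.16 higher in clone 2 than in clone 1 on the log2 scale (adjusted p = 0.333 in limma), which is the median of the 601 X-linked genes tested (0.16). The median over all genes was −0.0067. The lines also differed in Y-linked genes. *Ddx3y* read 359 and 387 in MEF, 1.02 to 1.92 in pre-iPS, 1578 to 1785 in the control iPS line, 1478 and 1479 (clone 1) and 0.887 to 1.98 (clone 2), and *Kdm5d*, *Eif2s3y* and *Uty* were likewise low in pre-iPS and clone 2. Sex chromosome content and line cannot be told apart in the comparisons of MEF, pre-iPS, the clones and the control. The part of X-linked dosage in the *Dkc1* values was not tested.

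Passage 25 was compared with passage 5 over the 4 lines that share these passages, with the line as a block. *Acd* rose in all 4 lines, on the log2 scale by 0.26 (pre-iPS), 0.18 (control iPS), 0.23 (clone 1) and 0.37 (clone 2). The mean change was 0.26 ± 0.062 (SE; adjusted p = 0.0418 in limma), and this was the 1 gene of 9 to pass, against 10.9% of all genes (3.31% higher). The exact permutation test over 4 pairs cannot give a p below 0.125, which it gave. The call was lost in limma when any 1 of the 8 libraries was left out, with adjusted p between 0.0528 and 0.183 and a change between 0.22 and 0.28.

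**Figure D3:**
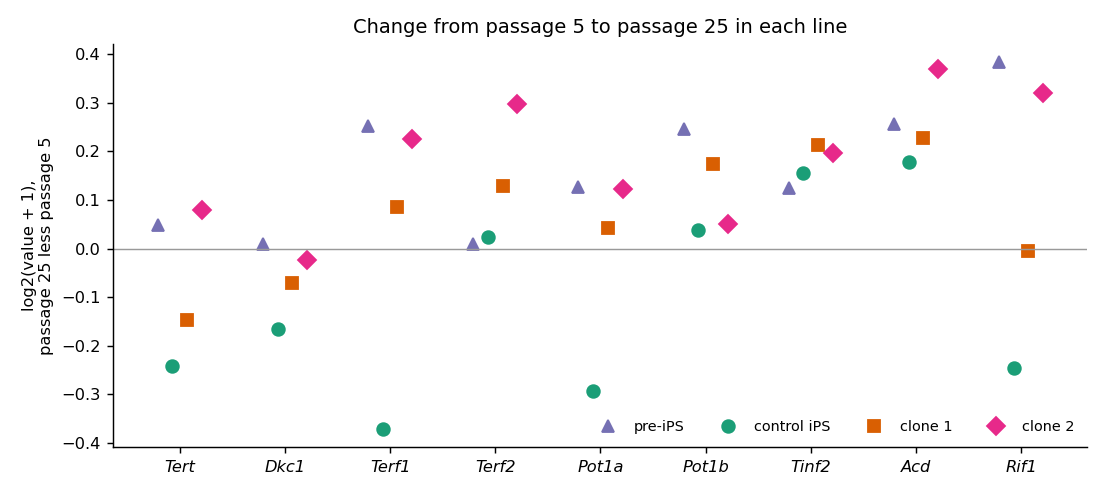
Change in log2(value + 1) from passage 5 to passage 25 for the 9 genes in the pre-iPS line and the 3 iPS lines, 1 symbol per line. *Acd*, *Tinf2*, *Terf2* and *Pot1b* lie above 0 in all 4 lines, and *Rif1* runs from −0.25 in the control to 0.38 in pre-iPS.

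Its neighbour *Carmil2* read 43.9 and 43.2 in pre-iPS, 224 and 217 in the control iPS line, 176 and 186 (clone 1) and 250 and 477 (clone 2) at passages 5 and 25. The neighbour was thus higher at passage 25 in both clones and lower in the other lines, whereas *Acd* was higher in each. *Tinf2* was also higher at passage 25 in 4 of 4 lines, with a mean of 0.17 ± 0.052 (SE; adjusted p = 0.0762 in limma), and passed in DESeq2 on the recovered reads (adjusted p = 0.0407). *Terf2* (0.11) and *Pot1b* (0.13) were higher in 4 of 4 lines without passing. The share of all genes higher in 4 of 4 lines was not counted, and passage changes over all genes correlated between lines (0.235 to 0.504).

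*Tert*, *Dkc1*, *Terf1*, *Pot1a* and *Rif1* moved in both directions among the lines. The control line went down in each of them, by −0.24, −0.16, −0.37, −0.29 and −0.25 on the log2 scale. Clone 2 at passage 25 held the highest value of the 10 libraries in 5 genes, namely *Terf1*, *Terf2*, *Pot1a*, *Acd* and *Rif1*. The share of all genes with their highest value in that library was not counted, so this may be a trait of the library. The 2 MEF libraries, which are 2 passages apart, differed by a median of 0.062 over all genes and by at most 0.077 in the 9 genes. In the other lines, 20 passages apart, the median over all genes was 0.190 to 0.232.

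A further list of 12 genes of telomerase assembly and regulation held the RNA *Terc* as well as genes of proteins. Of these 12, 11 were lower and 1 higher in MEF than in the iPS lines in limma. Their median was −1.38 beside −0.087 over all genes, of which 41.9% were lower and 37.4% higher. At least 2-fold lower were *Nop10* (−1.71), *Nhp2* (−1.74) and *Gar1* (−1.29), which bind the RNA with dyskerin, *Naf1* (−1.67) and *Shq1* (−1.39), which help to assemble that particle, and the ATPases *Ruvbl1* (−1.36) and *Ruvbl2* (−1.78). *Tep1*, a telomerase-associated protein, was higher (1.22). Under scaling to the housekeeping genes 9 were lower and 1 higher. In pre-iPS against iPS 3 of the 12 were lower and 1 higher, beside 20.8% and 18.7% of all genes, with a median of −0.09.

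The telomerase RNA *Terc* itself was listed at 2.12 and 2.37 in MEF, 8.64 to 13.3 in pre-iPS and 9.92 to 22.9 in the iPS lines. MEF were below every other library, and *Terc* is among the 11 genes that passed as lower. It has no poly(A) tail and the libraries were made from poly(A) RNA, so that these few reads do not measure its amount in the cell and no fold change is given.

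A further 15 genes of telomere ends and their replication included *Terf2ip*, the shelterin protein RAP1 that binds TRF2. It read 1112 and 1196 in MEF, 1032 to 1115 in pre-iPS and 980 to 1123 in the iPS lines, with overlap and a difference of 0.12 between MEF and iPS (adjusted p = 0.176 in limma). Of the 15, 10 were lower and 2 higher in MEF, with a median of −0.52, against 6 and 6 under scaling to the housekeeping genes. The 12 that passed are near the share of all genes in either direction (79.3%), of which 41.9% were lower and 37.4% higher. *Blm*, a helicase (−1.71), *Fen1*, a flap nuclease of replication (−1.28), and *Ctc1*, of the complex that fills in the end (−1.12), were at least 2-fold lower. In MEF against pre-iPS, *Ctc1* (−1.23), *Dclre1b* (−1.10) and *Blm* (−1.03) were at least 2-fold lower in limma. These were 3 of the 15, against 22.4% of all genes. In pre-iPS against iPS 5 were lower and 1 higher, beside 39.6% of all genes in either direction, *Blm* with the largest difference (−0.69, adjusted p = 0.00071 in limma).

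Of 11 genes that act with *Rif1* or sense DNA ends, 8 were lower and 0 higher in MEF, with a median of −0.49 and no gene at 2-fold, and 3 lower and 3 higher under scaling to the housekeeping genes. The 8 of 11 that passed are near the 79.3% of all genes in either direction, of which 41.9% were lower and 37.4% higher. In pre-iPS against iPS 3 of the 11 were lower, beside 20.8% of all genes, and the median was −0.07 while *Rif1* stood at −0.997. A list of 12 proliferation genes, among them the *Mcm* helicase subunits, were measured beside them because several telomere genes act in replication. All 12 were lower in MEF, against 41.9% of all genes, with a median of −1.62. In pre-iPS 10 of 12 were lower, against 20.8% of all genes, with a median of −0.47. Their summed level was 57760 to 57842 in MEF, 105977 to 128388 in pre-iPS and 137649 to 183324 in the iPS lines. These sums moved in the same order as *Rif1* and *Terf1*, and the part of cell division in their values was not tested.

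**Figure D4:**
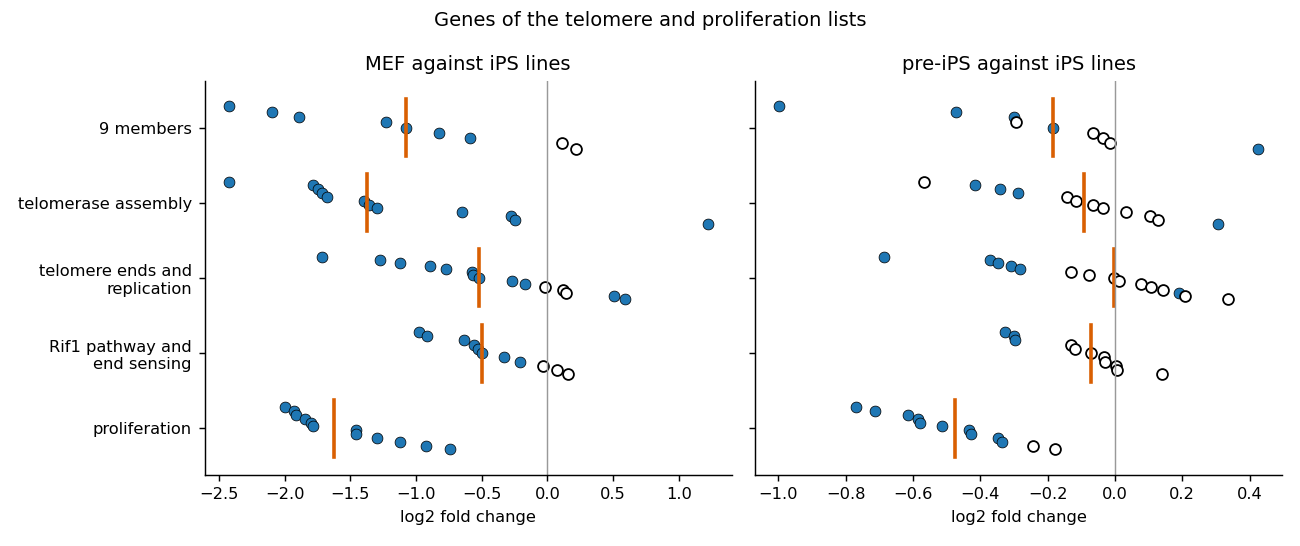
Log2 fold changes of single genes (circles) in the 9-gene list and in 4 further lists, for MEF and for pre-iPS against the 3 iPS lines. Filled circles passed an adjusted p of 0.05 in limma and vertical bars are medians. In MEF the median was −1.07 for the 9 genes and −1.62 for the proliferation genes, and in pre-iPS −0.18 and −0.47.

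Over the 10 libraries, which fall mainly into MEF and the other lines, the correlations of log2(value + 1) share that split and are given as a description. The genes most like *Tert* were *Chchd5*, *Gna14* and *Zfp661* (Pearson r of 0.988, 0.987 and 0.987). Those most like *Dkc1* were *Psmg1*, *Nup54* and *Rpf2* (r = 0.999 each), and 1688 genes had r above 0.95 with it. *BC052040*, *Nol11* and *Rab11fip4* were nearest to *Terf1* (0.996, 0.995 and 0.995), and *Eml5*, *Gm13152* and *Blm* to *Rif1* (0.997, 0.996 and 0.996). Within the list, *Terf1* and *Rif1* had r = 0.982 and *Terf2* and *Acd* r = 0.785, while *Terf2* and *Acd* were each negatively related to the other 7 genes.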

How the data were processed

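Poly(A) RNA of 10 libraries (TruSeq RNA v2, not stranded, 50-nt single reads) was sequenced by the authors. The submitters' processing notes name FastQC, CASAVA 1.8.2, TopHat2 2.0.8b, HTSeq 0.5.3p9, edgeR and build mm10. The annotation and the strand setting of the counting are not given in the sources used here. The deposited unit is a normalised signal, edgeR pseudo-counts. Whole reads were recovered from 99.9947% to 100% of the values per library (tolerance 0.1 read), giving 38110410 to 52946856 reads on genes.

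After a filter on low values (10 or more in 2 or more libraries; 17075 of 18901 genes), limma 3.58.1 (R 4.3.3; lmFit, eBayes with trend) was fitted to log2(value + 1) with a mean for every line, and p-values were adjusted over all genes by Benjamini-Hochberg. Fold changes are on that scale. A gene was called at an adjusted p under 0.05, and 2-fold means a change of 1 or more on the log2 scale. The passage comparison used 8 libraries and blocked on the line. Exact two-sided permutation tests over libraries were added for single genes. Samples were grouped by their labels.

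Alternatives were pseudocounts of 0.5 and 5, no filter or a mean of at least 50, quantile normalization, TMM or housekeeping scaling, a fit of the lines compared only, the passage as a replicate block, a 2-fold threshold, leaving out each library, and edgeR 4.0.16 and DESeq2 1.42.0 on the recovered reads. The tests were tried on simulated data. Passage numbers pair the libraries of the pre-iPS and iPS lines: passage changes correlated between all 6 pairs of lines (0.235 to 0.504). Positions and exon lengths are from GENCODE M21 (GRCm38, the same assembly as mm10).

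The members and lists were chosen with earlier results of these data known. Named genes were the 9 members, list genes past the adjusted p and 2-fold in a comparison, *Terf2ip*, *Terc* and the 3 nearest genes by correlation for *Tert*, *Dkc1*, *Terf1* and *Rif1*. *Gmpr2* and *Carmil2* were named afterwards for their overlap.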

Additional observations from a re-analysis of the deposited data

Results flagged for a closer look

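*Dkc1* changed by 0.0092 on the log2 scale from passage 5 to passage 25 in pre-iPS and by −0.16, −0.072 and −0.023 in the control, clone 1 and clone 2. It was the 1 of the 9 genes in which the change in pre-iPS and that in every iPS line differed in sign, though the pre-iPS value hardly moved (6907 and 6951). The difference was not tested, and the pre-iPS change is smaller than any of the other 3.

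*Terf2* in clone 2 at passage 25 (2132) was far from the other 7 pre-iPS and iPS libraries (1477 to 1734): the gap to the next library was 0.608 of the whole range. This was 1 of 27 groups of libraries examined in this way, and chance gives about 1 in 20.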

How the results depend on the processing

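In MEF against iPS the count of 9 genes that passed was 7 to 9 in the alternatives run, other than 5 with the 2-fold threshold. In pre-iPS against iPS it was 5, and became 3 when only the lines compared were fitted and 0 with the 2-fold threshold. TMM scaling left 1 gene higher and 3 lower there, *Dkc1* losing the call (adjusted p = 0.0716 in limma). Calls in this comparison were also lost when 1 library was left out. In MEF against pre-iPS 8 became 5 with the 2-fold threshold and was 7 to 9 in the others, among them 7 with quantile normalization and 9 with TMM. In clone 2 against clone 1, 0 became 1 with DESeq2. For the passages, 1 became 2 with quantile normalization, 0 with the 2-fold threshold, 2 with DESeq2 and 0 when any 1 library was left out. With the passage as a replicate block, *Acd* passed in pre-iPS against iPS (−0.29, adjusted p = 0.0127) and no other call of the 9 genes changed.

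Of 1134 recomputed values of single genes, 1048 kept direction and call, 45 lost and 13 gained the call, and 28 changed sign, none of them past the threshold. The changes of sign were *Terf2* in MEF against iPS (−0.077, quantile), *Pot1a* in pre-iPS against iPS (0.010, TMM), *Pot1b* and *Tinf2* in clone 2 against clone 1 (−0.034 and −0.038, housekeeping), and *Pot1a* over the passages (0.043 quantile, 0.0036 housekeeping, 0.020 edgeR and 0.017 DESeq2). With 1 library left out, the ranges that crossed 0 were −0.078 to 0.048 (*Pot1a*) and −0.16 to 0.087 (*Pot1b*) in pre-iPS against iPS. In the clones against the control they were −0.035 to 0.13 (*Dkc1*), −0.21 to 0.17 (*Terf1*) and −0.0061 to 0.29 (*Pot1a*). In clone 2 against clone 1 they were −0.0058 to 0.14 (*Tert*), −0.064 to 0.11 (*Pot1b*) and −0.088 to 0.13 (*Tinf2*), and over the passages −0.020 to 0.19 (*Terf1*) and −0.043 to 0.096 (*Pot1a*). The cause was not tested. Scaling to the housekeeping genes took the share of higher calls from 48.4% to 65.3% in MEF against pre-iPS and from 70.8% to 60.8% in clone 2 against clone 1, and quantile normalization took it from 30.3% to 45.4% for the passages. Each of the 9 genes had 363 or more reads in each library. The spread between clones cannot be measured for pre-iPS and the control, which are 1 clone each.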
